A study of Mus musculus with 16 samples.

Results

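The neurotrophins and their receptors were followed in the hippocampus of 12-month-old male mice on 16 microarrays, 4 mice per group. The members are Bdnf, Ntf3, Ntf5, Ntrk2, Ntrk3, Ngfr, Sort1 and Kidins220, taken as every probe set that the platform annotation gives to that gene alone. Of these 8 listed genes, 7 had a named probe set, out of 18193 genes named on the array, and Ntf3 was not analysed here. The 7 genes held 29 probe sets, of which 21, from 5 genes, were brighter than 4 on the log2 scale on at least 4 arrays and were tested with 23905 probe sets in all. A probe set is a group of short probes against 1 transcript region, and its values are log2 intensities that compare arrays, not probe sets.

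The 4 groups were SAMP8 mice given AβPP antisense, SAMP8 mice given Random antisense, untreated SAMP8 mice and untreated Control mice. SAMP8 is a senescence-accelerated strain, with memory deficits at the age studied. AβPP antisense is directed at the amyloid-β precursor protein, Random antisense is its sequence control, and both were injected intravenously. Control mice were not an unrelated strain: they came from a 50% backcross of SAMP8 with CD-1 and had no memory deficits, so they also carry SAMP8 genome. Each array held RNA from the hippocampus of 1 mouse. The array titled Random antisense 1 carries a treatment label of none, against its title and description, and was kept in the group of its title.

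Neurotrophins are secreted growth factors of neurons, made as precursors that are cleaved to mature ligands. Mature BDNF and neurotrophin-4 bind the receptor kinase TrkB, and neurotrophin-3 binds mainly TrkC, whereas the precursors bind p75NTR together with sortilin. In the hippocampus, BDNF is made mostly by granule and pyramidal neurons, in an activity-dependent way, and TrkB signalling takes part in synaptic plasticity.

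Several Bdnf start sites are used by different promoters, and one of them holds a calcium and cyclic AMP response element, which is shown because activity-dependent transcription of Bdnf runs through elements of this kind. RefSeq promoter windows (build GRCm38.p6, 250 bases before to 50 bases after a start) were given for 12 starts of 5 member genes, 7 of them of Bdnf. The letters TCACGTCA, searched on both strands, stood in 1 of the 7 Bdnf windows, 38 bases before the start, and in 0.441% of all 32851 windows. The related letters TGACGTCA stood in 0 of the 12 member windows and in 1.79% of all windows. The upstream part of the matching window, chr2:109692186-109692435 on the plus strand, is given 5′ to 3′ with the match in capitals.
Bdnf promoter window: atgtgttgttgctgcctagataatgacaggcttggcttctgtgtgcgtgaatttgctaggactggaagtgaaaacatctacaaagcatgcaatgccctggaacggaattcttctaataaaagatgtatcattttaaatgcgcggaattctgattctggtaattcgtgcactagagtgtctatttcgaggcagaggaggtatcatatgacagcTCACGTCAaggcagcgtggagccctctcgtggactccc
A match describes the letters only, and the array values below do not tell the start sites of Bdnf apart.

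Some arrays stood apart in ways that the groups do not name. The median of an array's correlations with the 15 others, over tested probe sets, was 0.905 on AβPP antisense 4 and 0.922 on Control 4, against 0.958 to 0.989 for the remaining 14. Of those 14, AβPP antisense 1 and 2 were at 0.969 and 0.958. The difference between the 3′ and 5′ β-actin control probe sets, a sign of RNA or labelling quality, was 3.89 log2 units on AβPP antisense 4. It was 1.60 on both AβPP antisense 1 and 2, 1.21 on AβPP antisense 3 and 0.84 to 1.36 in the other groups. For GAPDH it was −0.09, 0.02, −0.35 and 1.26 on AβPP antisense 1 to 4, and −0.41 to −0.30 in the other groups. The part of this quality measure in the group differences was not tested. The mean of 6 measured leukocyte markers was 12.62 on Control 4 and 6.99 to 8.30 elsewhere. Of the hippocampal marker lists, the mean of 8 pyramidal cell markers lay between 7.31 and 8.96 on every array. The mean of 7 dentate granule cell markers was 4.75 on AβPP antisense 2, 5.50 on Control 4 and 5.66 on AβPP antisense 4. On the remaining arrays the dentate granule cell mean was higher, at 6.38 to 7.45. None of 4 cholinergic neuron markers passed the filter on low values. In whole tissue, fewer cells of a type and less RNA per cell cannot be told apart.

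No member probe set passed the test in any comparison. With limma and Benjamini-Hochberg adjustment over all tested probe sets at 0.05, 0 of 21 passed between AβPP antisense and Random antisense, where 0.0837% of all tested probe sets did. Likewise 0 of 21 passed between AβPP antisense and untreated SAMP8 (0.289% of all), between Random antisense and untreated SAMP8 (0% of all), between SAMP8 and Control (0.36% of all) and in the F test over the 4 groups (0.849% of all). At an unadjusted p under 0.05 the members numbered 4, 4, 0 and 0 in the same 4 comparisons, against 12.3%, 14.7%, 1.12% and 4.38% of all tested probe sets. The comparisons share arrays: AβPP antisense, Random antisense and untreated SAMP8 each enter more than 1 of them. The 2 comparisons of AβPP antisense rest on the same 4 AβPP antisense mice.

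Among the members, 16 of 21 differences were negative between AβPP antisense and Random antisense (median −0.19, against 0.01 for all tested probe sets), and 14 of 21 between AβPP antisense and untreated SAMP8 (median −0.14, against 0.00). Between SAMP8 and Control, 17 of 21 were positive (median 0.16, against 0.04), while between Random antisense and untreated SAMP8 11 of 21 were positive (median 0.00, against −0.01). Control 4 was the lowest of all 16 arrays for 11 of the 21 member probe sets and for 27.26% of all tested ones. AβPP antisense 4 was the lowest for 6 of 21 and for 25.45% of all.

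**Figure D1:**
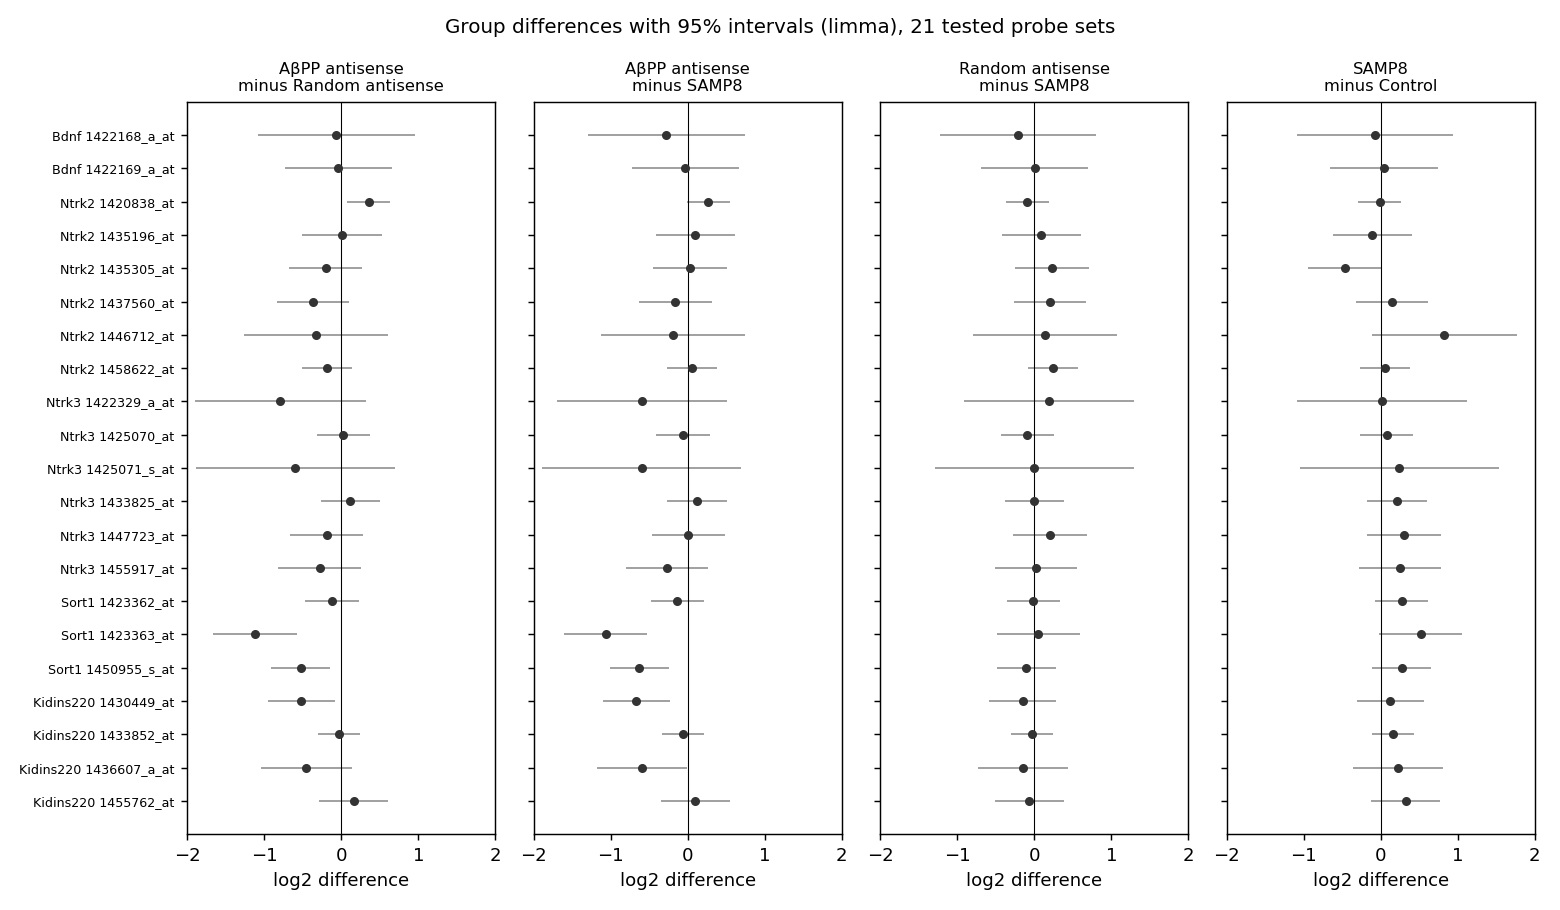
Log2 differences of the 21 tested member probe sets in the 4 comparisons, the first-named group minus the second, with 95% intervals from limma. The widest departures from 0 are those of Sort1 1423363_at, at −1.12 for AβPP antisense minus Random antisense and −1.07 for AβPP antisense minus SAMP8, and no point passed the adjusted test.

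Bdnf, the ligand of TrkB, differed little in its group means but spread widely among the AβPP antisense mice. Probe set 1422168_a_at read 9.37, 7.35, 9.11 and 6.42 in AβPP antisense mice, against 7.88, 8.35, 8.42 and 7.85 in Random antisense mice. It read 8.34, 8.34, 8.30 and 8.39 in untreated SAMP8 mice, against 8.50, 8.07, 8.57 and 8.52 in Control mice. AβPP antisense 1 and 3 lay above, and 2 and 4 below, every other array, so the groups overlapped. The mean was 8.06 ± 1.42 in AβPP antisense and 8.13 ± 0.30 in Random antisense (SD, n = 4 each), a difference of −0.06 (95% interval −1.08 to 0.95, adjusted p = 0.970). That interval spans changes of about 1 log2 unit either way. The sign was not stable: leaving out each array in turn gave −0.50 to 0.48, with −0.50 without AβPP antisense 1, 0.17 without AβPP antisense 2, −0.42 without AβPP antisense 3 and 0.48 without AβPP antisense 4. It was also positive, at 0.01 and 0.03, without Random antisense 2 and 3.

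The second Bdnf probe set, 1422169_a_at, split the AβPP antisense mice in the same way. It read 7.61, 6.03, 7.47 and 6.09 in AβPP antisense mice, against 6.87, 6.90, 6.96 and 6.63 in Random antisense mice. In untreated SAMP8 mice it read 6.74 to 6.96, against 6.14 to 7.13 in Control mice. The deviations of both Bdnf probe sets from their group means correlated across the 16 arrays (r = 0.825, a description, since both read the same RNA). The range of 1422168_a_at among the AβPP antisense mice was 2.95, and 4.48% of tested probe sets had as wide a range in that group. Without AβPP antisense 4 the range was still 2.02, and 3.96% of tested probe sets had as wide a range over those arrays. The range of 1422169_a_at was 1.57 with or without AβPP antisense 4. As wide a range was less rare for it, at 19.13% of tested probe sets with that array and 8.13% without it.

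**Figure D2:**
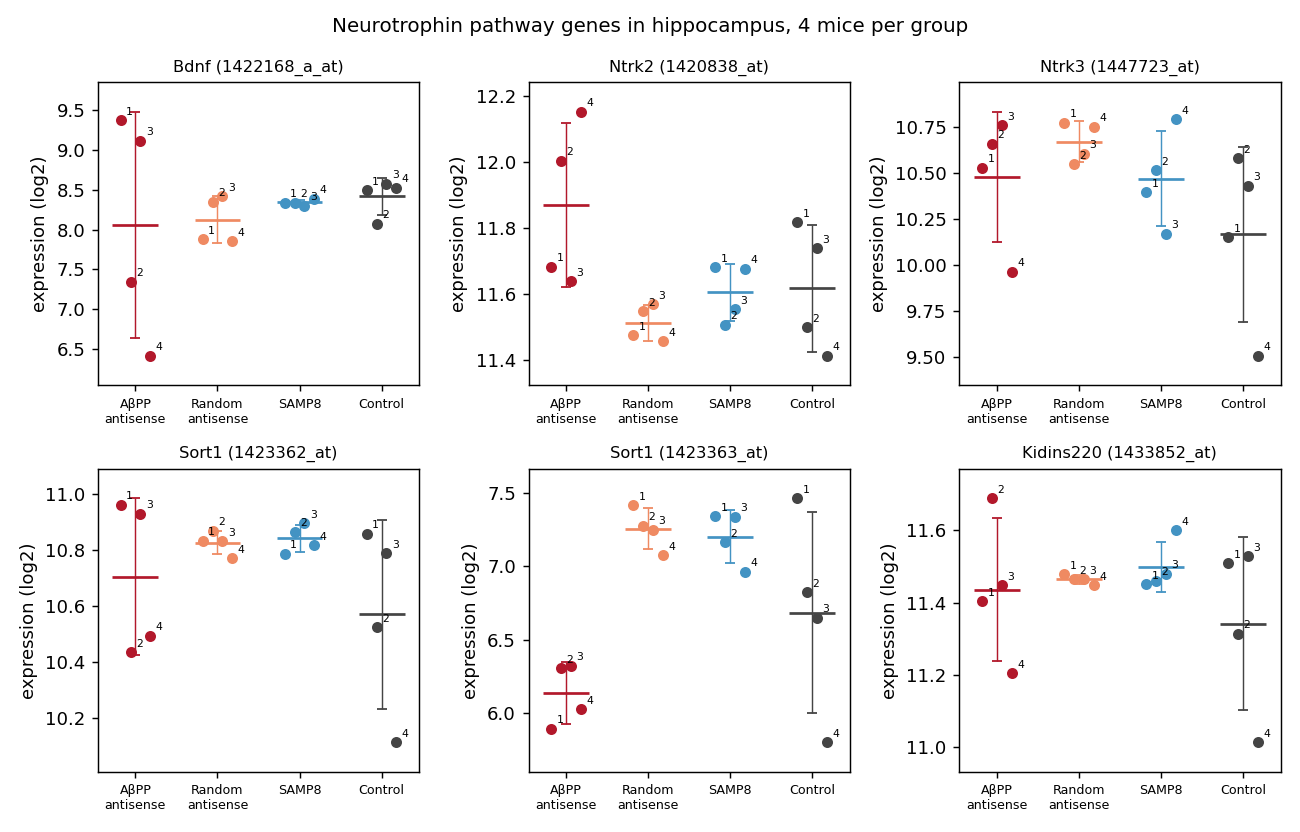
Log2 intensity of member probe sets on each of the 16 arrays, 1 numbered point per mouse, in AβPP antisense, Random antisense, SAMP8 and Control, with the group mean as a line and its SD as a bar. Bdnf 1422168_a_at runs between 6.42 and 9.37 in AβPP antisense and between 8.30 and 8.39 in SAMP8, while all 4 AβPP antisense mice lie at or below 6.32 for Sort1 1423363_at.

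Markers of the neurons that make Bdnf differed among the same 4 mice. The mean of 7 dentate granule cell markers was 7.31, 4.75, 7.45 and 5.66 on AβPP antisense 1 to 4, against 6.52 to 6.84 in Random antisense, 6.38 to 6.95 in untreated SAMP8 and 5.50 to 7.06 in Control mice. The mean of 8 pyramidal cell markers was 8.80, 7.31, 8.96 and 7.60 on the same arrays, against 8.15 to 8.60 in Random antisense, 8.27 to 8.55 in untreated SAMP8 and 7.68 to 8.61 in Control mice. On Control 4 these means were low, at 5.50 and 7.68, while Bdnf 1422168_a_at read 8.52 and 1422169_a_at 6.14 there. Among the AβPP antisense mice both means were high on arrays 1 and 3, where Bdnf was high, and low on arrays 2 and 4. The mean of 12 thalamus markers ran the other way, at 7.39, 9.35, 7.21 and 9.95 on AβPP antisense 1 to 4, against 8.74 to 9.43 in Random antisense, 9.62 to 9.77 in untreated SAMP8 and 9.16 to 10.13 in Control mice. None of the 7, 8 and 12 markers of these lists passed the test in any comparison, where 0% to 0.36% of all tested probe sets did. The mean of 13 measured activity-induced genes was 8.11, 6.98, 8.39 and 9.01 on AβPP antisense 1 to 4, against 8.11 to 9.19 in Random antisense mice. Among the AβPP antisense mice it was lowest on array 2 and highest on array 4. Of the same mice, Bdnf 1422168_a_at was lowest on array 4 and 1422169_a_at on array 2. The part of tissue makeup and RNA quality in the Bdnf spread was not tested.

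**Figure D3:**
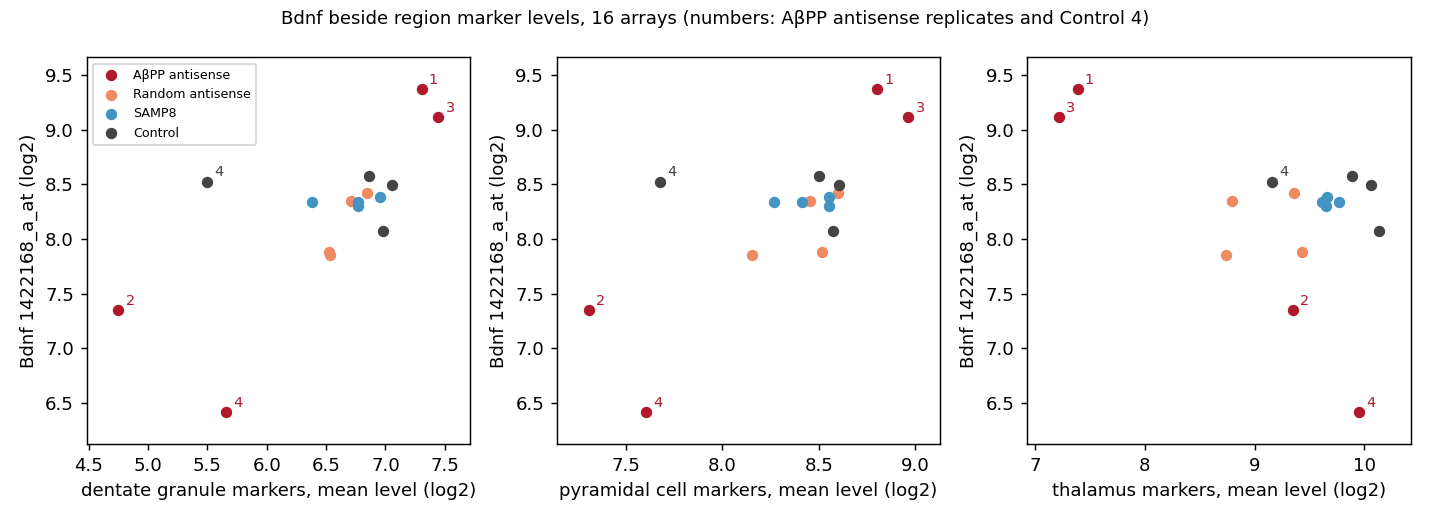
Log2 intensity of Bdnf 1422168_a_at on the y axis against the mean log2 value of marker lists on the x axes, 1 point per array, coloured by group, with the AβPP antisense mice and Control 4 numbered. AβPP antisense 1 and 3 combine high Bdnf with dentate granule cell means of 7.31 and 7.45, and AβPP antisense 2 and 4 combine low Bdnf with means of 4.75 and 5.66. Control 4 combines a low dentate granule cell mean, 5.50, with Bdnf at 8.52.

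Ntf5, which encodes neurotrophin-4, had 1 probe set, 1440353_at, which read 2.73 to 3.00 on all 16 arrays and did not pass the filter. The 3 probe sets of Ngfr, which encodes p75NTR, read 1.88 to 3.79 and did not pass it either. Neither transcript was distinguishable from low signal on these arrays, and no difference was tested for them.

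Ntrk2 encodes TrkB, which exists as a full-length kinase and as truncated forms that are abundant in astrocytes, and the annotation does not tie its probe sets to these forms. Of its 8 probe sets 6 were tested. Probe set 1420838_at, with the highest mean of the 6, read 11.68, 12.00, 11.64 and 12.15 in AβPP antisense mice, against 11.48, 11.55, 11.57 and 11.46 in Random antisense mice. All 4 AβPP antisense values lay above all 4 Random antisense values, by 0.36 on average (SE 0.131, adjusted p = 0.308). Untreated SAMP8 mice read 11.68, 11.51, 11.55 and 11.68, against 11.82, 11.50, 11.74 and 11.41 in Control mice, and these overlapped. Complete separation of AβPP antisense and Random antisense was seen for 3 of 21 member probe sets and for 7.58% of all tested probe sets.

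The other Ntrk2 probe sets showed no such separation. Between AβPP antisense and Random antisense their differences were 0.01 for 1435196_at, −0.20 for 1435305_at, −0.37 for 1437560_at, −0.33 for 1446712_at and −0.18 for 1458622_at, and all 5 overlapped. Against untreated SAMP8, 1420838_at differed by 0.27 and 3 of the other 5 were also positive, at 0.10 for 1435196_at, 0.03 for 1435305_at and 0.06 for 1458622_at, again with overlap. The mean over the 6 tested probe sets differed by −0.12 between AβPP antisense and Random antisense, and by 0.02 between AβPP antisense and untreated SAMP8. Probe sets 1437560_at and 1458622_at tracked each other across arrays (r = 0.937 for deviations from group means), whereas 1420838_at had r = −0.01 with 1458622_at. On AβPP antisense 2 the mean of 12 astrocyte markers was 11.91, against 11.36 to 11.51 in Random antisense mice, and Ntrk2 1435196_at was also highest there, at 11.15. On AβPP antisense 4 the astrocyte mean was the lowest of the 16 arrays, at 10.94, whereas Ntrk2 1420838_at was at its highest, at 12.15. That list's part in the Ntrk2 values was not tested.

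Random antisense and untreated SAMP8 mice were separated for 2 member probe sets, both of Ntrk2, against 8.1% of all tested probe sets. Probe set 1458622_at read 11.73, 11.79, 11.77 and 11.76 in Random antisense mice, against 11.58, 11.34, 11.61 and 11.54 in untreated SAMP8 mice, a difference of 0.24 (SE 0.153). Probe set 1437560_at read 10.19 to 10.33 in Random antisense mice, against 9.88 to 10.16 in untreated SAMP8 mice. No member was separated between SAMP8 and Control, against 4.81% of all. There Ntrk2 1435305_at differed by −0.47 and 1446712_at by 0.83 (adjusted p = 0.999 each), in opposite directions for the same gene. Without Control 4, which read 5.74, the 0.83 became 0.51. A further Ntrk2 probe set below the filter, 1420837_at, read 7.94 on Control 4 and 2.17 to 3.95 on the other 15 arrays.

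Ntrk3 encodes TrkC, the receptor of neurotrophin-3, and 6 of its 8 probe sets were tested. Probe set 1447723_at read 10.53, 10.66, 10.76 and 9.96 in AβPP antisense mice, against 10.78, 10.55, 10.61 and 10.75 in Random antisense mice. It read 10.40, 10.52, 10.17 and 10.79 in untreated SAMP8 mice, against 10.15, 10.58, 10.43 and 9.51 in Control mice. The groups overlapped, and AβPP antisense 4 and Control 4 were the lowest of their groups.

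In 3 of the other Ntrk3 probe sets AβPP antisense 4 lay far below its group. Probe set 1425071_s_at read 6.50, 6.90, 6.77 and 3.14 in AβPP antisense mice, against 6.61, 6.19, 6.61 and 6.28 in Random antisense mice. Probe set 1422329_a_at read 5.33, 5.13, 5.93 and 2.57 in AβPP antisense mice, against 5.40 to 5.67 in Random antisense mice. Probe set 1433825_at read 9.93, 9.95, 9.88 and 9.01 in AβPP antisense mice, against 9.45, 9.63, 9.58 and 9.64 in Random antisense mice, so arrays 1 to 3 lay above and array 4 below the Random antisense mice. The difference of 1425071_s_at between AβPP antisense and Random antisense was −0.60 (SE 0.606), and −0.95 to 0.30 over each array left out in turn, with 0.30 without AβPP antisense 4. The remaining pair stayed closer together: 1425070_at read 5.17 to 5.93 in AβPP antisense mice, against 5.44 to 5.48 in Random antisense mice, and 1455917_at read 4.98 to 5.58, against 5.35 to 5.71. AβPP antisense 4 had the high 3′ to 5′ difference given above, whose part in these values was not tested.

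Sort1 encodes sortilin, a sorting receptor that binds pro-neurotrophins with p75NTR and also carries BDNF towards regulated secretion. Probe set 1423363_at read 5.89, 6.30, 6.32 and 6.03 in AβPP antisense mice, against 7.42, 7.28, 7.25 and 7.08 in Random antisense mice. It read 7.34, 7.16, 7.34 and 6.96 in untreated SAMP8 mice, against 7.46, 6.83, 6.65 and 5.80 in Control mice. Every AβPP antisense value lay below every Random antisense and untreated SAMP8 value, whereas the Control values spanned all of them. The difference was −1.12 between AβPP antisense and Random antisense (SE 0.253, 95% interval −1.66 to −0.58, adjusted p = 0.115) and −1.07 between AβPP antisense and untreated SAMP8 (adjusted p = 0.0953). In the F test over the 4 groups its adjusted p was 0.0892.

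Probe set 1450955_s_at of Sort1 had the same separation. It read 7.79, 8.18, 8.20 and 8.02 in AβPP antisense mice, against 8.51, 8.80, 8.55 and 8.44 in Random antisense mice. Untreated SAMP8 mice read 8.62, 8.75, 8.74 and 8.60, against 9.01, 8.28, 8.38 and 7.96 in Control mice. The differences were −0.53 from Random antisense (SE 0.181, adjusted p = 0.281) and −0.63 from untreated SAMP8 (adjusted p = 0.149). These 2 Sort1 probe sets were the only members separated between AβPP antisense and untreated SAMP8, where 7.96% of all tested probe sets were. Their deviations from group means correlated across the 16 arrays (r = 0.866), and both read the same RNA, so they are not independent.

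The third Sort1 probe set, 1423362_at, has the highest mean of the 3 and overlapped in every comparison. It read 10.96, 10.44, 10.93 and 10.49 in AβPP antisense mice, against 10.83, 10.87, 10.83 and 10.77 in Random antisense mice. The difference was −0.12 (SE 0.161, adjusted p = 0.805), with arrays 1 and 3 above the Random antisense mice and arrays 2 and 4 below them, as for Bdnf. The mean over the 3 Sort1 probe sets differed by −0.59 from Random antisense (adjusted p = 0.226).

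Whether Sort1 1423363_at passed the test depended on single arrays. Without Control 4 the adjusted p was 0.0179 against Random antisense and 0.0190 against untreated SAMP8, where 0.243% and 0.573% of all probe sets passed. Without AβPP antisense 3 it was 0.0340 and 0.0334, where 3.75% and 5.38% of all passed. Over each array left out in turn it ran up to 0.354 and 0.288, with the difference at −1.18 to −1.04 and −1.15 to −0.98. Choroid plexus markers also separated these groups: the mean of 11 was 5.39, 4.97, 5.52 and 6.56 in AβPP antisense mice, against 6.98 to 8.09 in Random antisense, 7.38 to 8.40 in untreated SAMP8 and 6.75 to 7.78 in Control mice. Of these 11 markers, 0 were positive in AβPP antisense against untreated SAMP8, with a median of −2.45. There 4 of the 11 passed the test, against 0.289% of all tested probe sets. They are named here after their values were seen: Clic6 (−2.45), Kl (−2.61), Folr1 (−2.90) and Kcnj13 (−3.38), in log2 units. Against Random antisense 0 of the 11 were positive as well, with a median of −2.27. None of them passed the test there, against 0.0837% of all tested probe sets, and Clic6 had the smallest p (−1.88, adjusted p = 0.0688). The part of the choroid plexus markers in the Sort1 values was not tested.

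**Figure D4:**
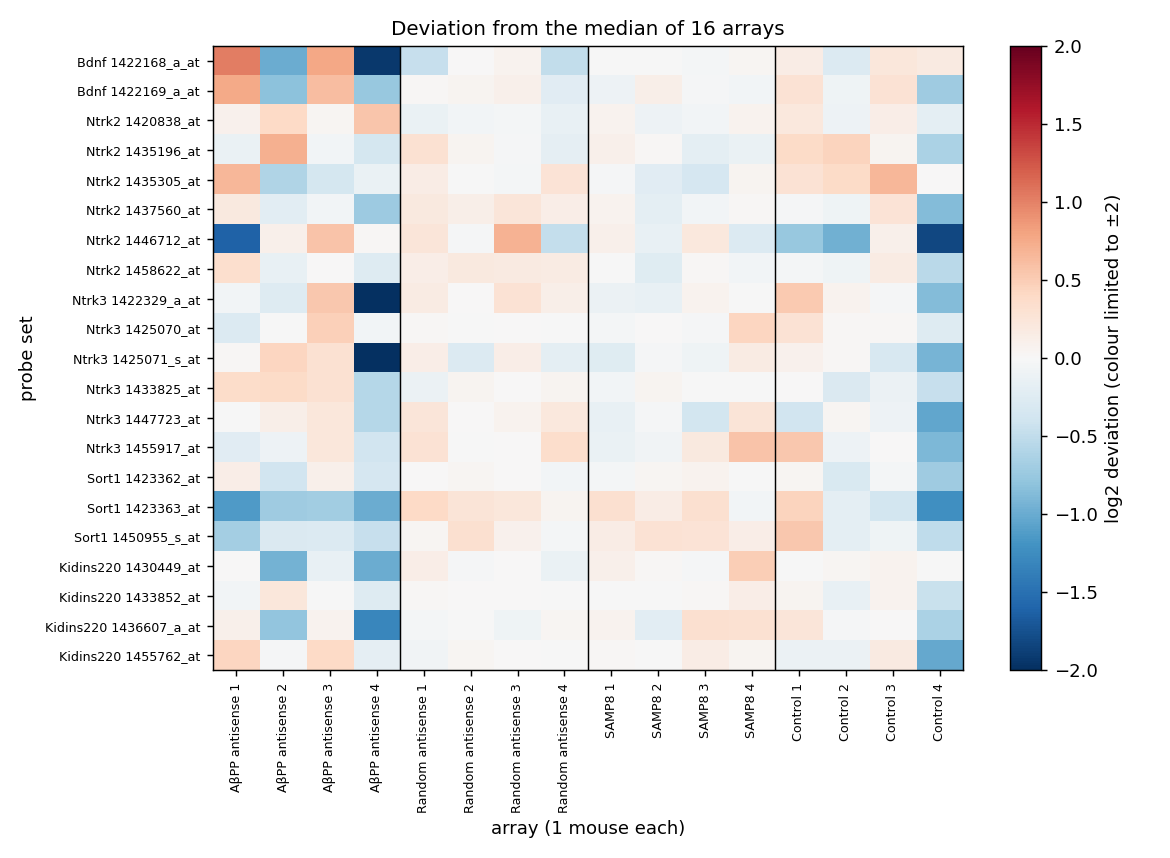
Deviation of each tested member probe set from its median over all 16 arrays, in log2 units, with arrays in columns ordered AβPP antisense, Random antisense, SAMP8 and Control. AβPP antisense 4 and Control 4 hold the lowest value for 6 and 11 of the 21 probe sets.

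Kidins220, a membrane scaffold that binds Trk receptors and p75NTR and is phosphorylated by protein kinase D, had 4 tested probe sets. Probe set 1433852_at, with the highest mean, read 11.40, 11.69, 11.45 and 11.20 in AβPP antisense mice, against 11.48, 11.46, 11.47 and 11.45 in Random antisense mice. It read 11.45, 11.46, 11.48 and 11.60 in untreated SAMP8 mice, against 11.51, 11.31, 11.53 and 11.01 in Control mice. The difference between AβPP antisense and Random antisense was −0.03 (95% interval −0.30 to 0.24), and the groups overlapped.

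Probe set 1430449_at of Kidins220 read 4.92, 3.97, 4.77 and 3.92 in AβPP antisense mice, against 5.06, 4.90, 4.93 and 4.79 in Random antisense mice and 5.02, 4.95, 4.90 and 5.41 in untreated SAMP8 mice. Its values lie near the filter of 4. The differences were −0.52 from Random antisense (adjusted p = 0.334) and −0.67 from untreated SAMP8 (adjusted p = 0.166), and without AβPP antisense 3 the second was −0.79 (adjusted p = 0.0416, with 5.38% of all probe sets passing). Probe set 1436607_a_at read 9.02, 8.13, 8.98 and 7.61 in AβPP antisense mice, against 8.82 to 8.95 in Random antisense mice, and 1455762_at read 10.62, 10.18, 10.59 and 10.02 in AβPP antisense mice, against 10.13 to 10.23 in Random antisense mice. In all 3 of these probe sets AβPP antisense 2 and 4 read lower than 1 and 3.

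The rest of the pathway was read from 8 lists that hold 87 genes, of which 71 had a tested probe set. None of the 71 passed the test in either direction in any of the 4 comparisons. Of all tested probe sets 0.0837% passed between AβPP antisense and Random antisense, and 0.289% between AβPP antisense and untreated SAMP8. The shares were 0% between Random antisense and untreated SAMP8 and 0.36% between SAMP8 and Control. With shares this low, the absence of calls does not set these 71 genes apart. Between AβPP antisense and Random antisense, 29 of 71 differences were positive and the median was −0.06, against 0.04 for all tested genes. Between AβPP antisense and untreated SAMP8, 33 of 71 were positive (median −0.04, against 0.03). Between SAMP8 and Control, 43 of 71 were positive (median 0.09, against 0.04), and between Random antisense and untreated SAMP8, 41 were (median 0.02, against −0.01). Of the 8 lists, 1 had no tested gene. For the others, members of smallest p are given.

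Among regulators of Bdnf transcription, Usf1, an E-box binding factor, differed by −1.71 between AβPP antisense and Random antisense (SE 0.366, adjusted p = 0.0974) and by −1.40 between AβPP antisense and untreated SAMP8 (adjusted p = 0.124). In that list 3 of 11 measured genes were positive against Random antisense. Npas4, an activity-induced transcription factor, differed by 1.61 between SAMP8 and Control (SE 0.939). Among BDNF-responsive genes, 8 of 8 were positive between SAMP8 and Control, led by Arc, a synaptic activity gene, at 1.42 (SE 0.690), with an adjusted p of 0.999. Between AβPP antisense and Random antisense 2 of 8 were positive, and Homer1, a postsynaptic scaffold, differed by −0.59 (adjusted p = 0.337). Arc, Egr1, Egr2 and Homer1 are also in the list of activity-induced genes. There 12 of 13 were positive between SAMP8 and Control, and 1 of 13 between AβPP antisense and Random antisense. These lists do not tell a response to BDNF from activity in general.

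Among adaptors that couple Trk receptors to their signalling, 9 of 22 were positive between AβPP antisense and Random antisense. Shc3, a neuronal Shc adaptor, differed by −1.43 (SE 0.406, adjusted p = 0.208) there and by −1.42 from untreated SAMP8 (adjusted p = 0.149). Sh2b2, an adaptor of receptor tyrosine kinases, differed by −0.88 between SAMP8 and Control (adjusted p = 0.650). Among genes of p75NTR signalling, Rhoa, a small GTPase, differed by −0.54 from Random antisense (adjusted p = 0.322) and by −0.53 from untreated SAMP8. None of these passed the test.

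Among ligand-processing enzymes, 7 of 13 listed genes were measured, and the convertase Pcsk5 differed by 0.44 between AβPP antisense and Random antisense (adjusted p = 0.374). Among the sortilin relatives, Sorcs3, of the same receptor family as Sort1, differed by 0.15 (adjusted p = 0.725), and 2 of 4 relatives were positive. Among genes of Trk trafficking, Slitrk1, a neuronal transmembrane protein, differed by −0.44 (adjusted p = 0.391).

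For each member the 3 genes most like it were taken by Pearson r over 16 arrays after the group means were removed, over all tested genes, as a description. Bdnf was most like Ccdc71l (r = 0.963), Acvr1 (0.955) and Arf1 (0.954), and these were 0.969, 0.916 and 0.896 without Control 4 and AβPP antisense 4. Sort1, by 1423362_at, was most like Prox1os (0.967), Srr (0.966) and Gpr155 (0.962), at 0.944, 0.933 and 0.919 without those arrays. Ntrk2 was most like Tspan9 (0.955), Fez2 (0.943) and Caskin2 (0.937), at 0.945, 0.896 and 0.876 without them. Kidins220 was most like Pou3f3 (0.955), Tex2 (0.953) and Aktip (0.950), which fell to 0.901, 0.856 and 0.824 without them. For Ntrk3 the closest were Gpr137c (0.909), Tafa2 (0.906) and Herpud2 (0.905), but without the same pair of arrays these fell to 0.645, 0.620 and 0.625, so that likeness rests largely on those arrays. All points share the libraries and their tissue makeup.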

How the data were processed

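The authors deposited log2 expression values of 45101 probe sets on 16 arrays, made with GCRMA per the submitters' processing notes, a method that corrects background and normalizes across arrays. No version of it is stated there. Arrays give no counts, so the number of mice limits the precision. Per the labels' protocols, 4 µg of total RNA from each mouse was labelled. Groups were taken from titles.

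Probe sets were named through the platform annotation: 34945 have 1 symbol, 932 several and 9160 none, and 64 are control probe sets. The filter kept 23905 probe sets that exceeded 4 log2 on 4 or more arrays and left out 21132. A one-way layout over 16 arrays was fitted with limma 3.58.1 in R 4.3.3 (residual df 12), with p-values adjusted by Benjamini-Hochberg at 0.05. The fit was run on simulated normal noise with added changes, with the same spread in all groups and no deviating arrays. These data differ in both, so that run does not test the fit under their conditions. For each gene, the tested probe set of highest mean stood for it. Named genes were the members, the smallest p of each pathway list, and the 3 most alike genes. The members and lists were chosen with earlier results of these data known. Alternatives were other filters, normalizations, array subsets, array weights, a β-actin covariate, a replicate block and another group for Random antisense 1. The labels give each array its own mouse and name no batch.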

Additional observations from a re-analysis of the deposited data

Results flagged for a closer look

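In each group of 4 arrays, the highest or lowest value of every tested member probe set was examined for a gap to its neighbour that exceeds Dixon's 95% critical value as a share of the group's range. Of 84 such groups, 4 were picked out, and chance picks about 1 in 20, or about 4.2 of 84. The values were 8.07 for Bdnf 1422168_a_at on Control 2, 5.87 for Ntrk3 1425070_at on SAMP8 4, 3.14 for Ntrk3 1425071_s_at on AβPP antisense 4 and 9.01 for Ntrk3 1433825_at on AβPP antisense 4. Both Ntrk3 values on AβPP antisense 4 were the lowest of their group.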

How the results depend on the processing

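The count of member probe sets that passed was 0 in every comparison and became 1 between AβPP antisense and Random antisense, 1 between AβPP antisense and untreated SAMP8, and 2 in the F test when Control 4 and AβPP antisense 4 were both left out (Sort1 1423363_at, and in the F test also Ntrk3 1433825_at). In that setting 0.832%, 1.68% and 2.01% of all probe sets passed. Leaving out each array in turn gave 0 to 1, 0 to 2 and 0 to 1 in the same 3 tests, and 0 to 0 in the other 2. The calls came without AβPP antisense 3 or Control 4 in the first 2 tests, and without Control 1 or Control 4 in the F test. They were Sort1 1423363_at and, between AβPP antisense and untreated SAMP8 without AβPP antisense 3, Kidins220 1430449_at. The cause was not tested.

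Of 2284 recomputed values of the 84 member differences, 2253 stayed within 1 residual SD and on the same side of the threshold, 24 moved further, 7 newly passed, and 140, from 42 differences, changed sign, all of them without passing. Counts over all probe sets ranged from 0 to 896 between AβPP antisense and Random antisense, 5 to 1286 between AβPP antisense and untreated SAMP8, 0 to 19 between Random antisense and untreated SAMP8, 37 to 295 between SAMP8 and Control, and 117 to 963 in the F test. The highest counts of the first 2 and of the F test came without AβPP antisense 3. Bdnf 1422168_a_at between AβPP antisense and Random antisense was −0.06, but 0.62 with array weights and 0.67 with the β-actin covariate.

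The replicate numbers did not pair the arrays: deviations of same-numbered arrays correlated at −0.27 to 0.24 over 24 pairs, 9 of them over 0.1, and 5 of 16 arrays correlated best with their own number. With the replicate block 0 member probe sets passed, and 17, 63, 0, 71 and 143 of all probe sets did, against 20, 69, 0, 86 and 203 without it. With 4 mice per group, the median SE of a member difference was 0.22 in every comparison, because all groups share the same estimate of the spread. The median SD of the member probe sets was 0.40 in AβPP antisense and 0.44 in Control. It was 0.11 in Random antisense and 0.12 in untreated SAMP8. The SEs and intervals therefore do not follow the spread of the groups compared.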
